A study of Arabidopsis thaliana with 6 samples.

Results

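The auxin-pathway microRNAs miR160, miR167 and miR393 of Arabidopsis thaliana pollen are described here through the 9 loci that encode them. These are MIR160a (AT2G39175), MIR160b (AT4G17788), MIR160c (AT5G46845), MIR167a (AT3G22886), MIR167b (AT3G63375), MIR167c (AT3G04765), MIR167d (AT1G31173), MIR393a (AT2G39885) and MIR393b (AT3G55734). They were taken by their locus IDs, with earlier results of these data known, and make up 9 of the 60936 IDs counted and 9 of the 164 IDs annotated as miRNA genes. Each ID had 1 row in the deposited tables, and of the 2043 joined IDs, which stand for segments shared by several genes, 0 contained a member. Reads of 21 nt and of 22 nt were kept apart, because both lengths occur among the annotated mature forms.

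The study sequenced small RNAs of pollen of the accession Col, from 3 wild-type libraries (15, 19 and 25) and 3 paps1-3 libraries (16, 20 and 26). paps1-3 is a mutant allele of PAPS1, the gene of a nuclear poly(A) polymerase, and the question of the series is the interaction between PAPS1 and the RNA-directed DNA methylation pathway. Whole RNA came from sorted pollen. Each isolation yielded wild-type and mutant grains by sorting a single sample, so genotype and sort gate are the same split. The labels give no plant age, no treatment, no number of plants and no basis of the sort, so the tests see only the variation among these 6 libraries, part or all of which may be technical.

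Counted reads of 18 to 28 nt numbered 10139424, 9757853 and 9312167 in wild-type libraries 15, 19 and 25, and 7916557, 5562287 and 9922763 in paps1-3 libraries 16, 20 and 26. Reads on all miRNA loci together made up 12.4% to 13.1% of the 21-nt reads in the wild type and 6.14% to 7.82% in paps1-3, so the pool in which the members were counted differed between the genotypes. Of the marker genes, all of which were read only through small RNAs, 4 of 4 vegetative-cell and 5 of 5 sperm-cell genes had reads, and the 4 tapetum genes had between 0 and 8 reads per library, with A9 at 0 in 5 of the 6. Summed over lengths, the vegetative-cell markers lay between 888 and 1145 CPM in wild type and between 1179 and 1474 in paps1-3, the sperm-cell markers between 8.94 and 12.3 and between 9.16 and 13.5, the leaf markers between 7.22 and 8.05 and between 3.72 and 6.49, and the tapetum markers between 1.22 and 1.61 and between 0.465 and 1.02. In these bulk samples fewer cells of a type and less RNA per cell cannot be told apart.

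Auxin is read in the nucleus by F-box receptors of the TIR1/AFB family, which in its presence mark Aux/IAA repressors for destruction and so free auxin response factors (ARFs) to act on their genes. In Arabidopsis miR393 directs the cleavage of TIR1/AFB transcripts, miR160 that of the repressing factors ARF10, ARF16 and ARF17, and miR167 that of the activating factors ARF6 and ARF8, so the families act at different steps of one response. A mature miRNA guides an Argonaute protein to a nearly complementary site in the target transcript, and forms of 22 nt are known for starting secondary siRNAs from the transcripts they cut.

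The mature sequences are shown because they decide what a count at a locus can mean: loci with the same mature sequence cannot be told apart by a read of it. They are annotated forms of RefSeq (TAIR10.1), printed 5′ to 3′, and capitals mark the seed, bases 2 to 8. The 3′-arm forms annotated at MIR160a, MIR160c, MIR167a and MIR167c are not printed, and each of them matches the genome at 1 place. All 9 loci matched an entry.
miR160a-5p, miR160b and miR160c-5p: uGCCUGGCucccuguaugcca
miR167a-5p and miR167b: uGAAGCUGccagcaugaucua
miR167d: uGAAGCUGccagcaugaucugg
miR167c-5p: uAAGCUGCcagcaugaucuug
miR393a-5p and miR393b-5p: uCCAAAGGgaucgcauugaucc
miR393a-3p: aUCAUGCUaucucuuuggauu
miR393b-3p: aUCAUGCGaucucuuuggauu
The 21-nt 5′-arm form of miR160 is the same at all 3 loci. MIR167a and MIR167b also share theirs, and MIR167d carries the same seed with A21G and 1 more base, counted from 1 at the 5′ end. MIR167c shares a run of 18 bases with MIR167a but shifted by 1 base, so its bases 2 to 8 differ. The 5′-arm form of miR393 is 22 nt long and the same at both loci, whereas the 3′-arm forms are 21 nt long, differ by U8G and each match the genome at 1 place.

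The precursors of miR393 show how its 21-nt and 22-nt forms sit in one hairpin. Capitals mark the annotated mature forms, the 22-nt one first and the 21-nt one second. MIR393a lies at chr2:16652101-16652233 and MIR393b at chr3:20691647-20691806 of TAIR10.1, both on the plus strand.
MIR393a: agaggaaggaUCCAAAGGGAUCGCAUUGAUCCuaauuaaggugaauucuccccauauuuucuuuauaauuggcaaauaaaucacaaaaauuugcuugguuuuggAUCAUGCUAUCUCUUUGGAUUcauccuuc
MIR393b: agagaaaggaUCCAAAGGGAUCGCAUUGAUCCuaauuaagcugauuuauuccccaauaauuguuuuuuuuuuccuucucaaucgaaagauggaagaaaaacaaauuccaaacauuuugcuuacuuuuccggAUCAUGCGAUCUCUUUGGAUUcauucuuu
Neither hairpin overlapped another annotated gene. The deposited counts are per locus and length and hold no sequence or position, so they do not separate the arms.

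The 3 families differed widely in how many reads they had. Of the 21-nt reads of the 9 loci, miR160 held 98.3% ± 0.320 in the wild type and 96.4% ± 1.41 in paps1-3, miR167 0.997% ± 0.231 and 0.452% ± 0.511, and miR393 0.707% ± 0.489 and 3.14% ± 0.912 (SD, n = 3 each). By mean level at 21 nt in wild type MIR160a ranked 29, MIR160c 36 and MIR160b 37 of the 164 miRNA loci, MIR393b 82, MIR167a 89, MIR167b 91, MIR167d 109, MIR393a 113 and MIR167c 128. The neighbours MIR160b and MIR160c, and MIR167a and MIR167b, did not differ in level beyond the spread between libraries. In paps1-3 MIR393b ranked 65, between the miR160 loci at 25 to 33 and the other 5 loci at 96 to 130. Of the 9 loci 4 passed the filter on low counts at 21 nt (MIR160a, MIR160b, MIR160c and MIR393b), 0 at 22 nt and 6 over all lengths, where MIR167a and MIR167b were added.

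**Figure D1:**
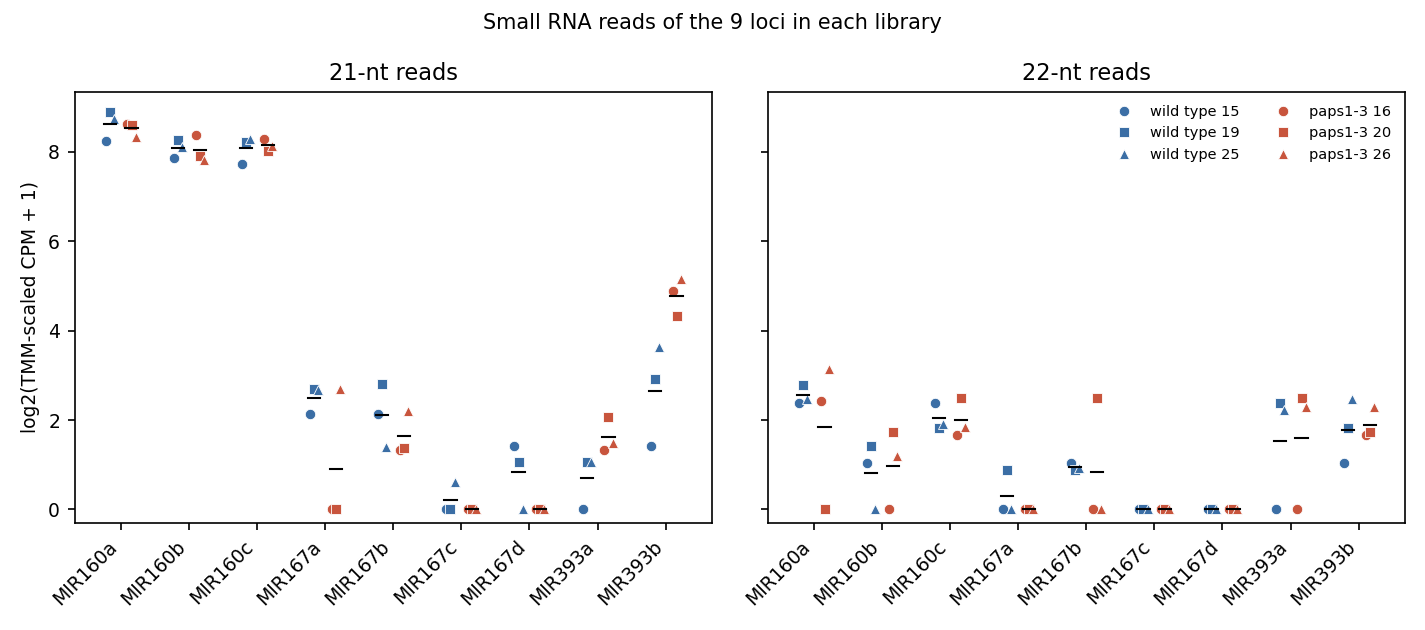
TMM-scaled CPM (as log2 of CPM + 1) of each locus at 21 nt (left) and 22 nt (right), 1 point per library, with horizontal lines for the mean of the 3 log values of a genotype. At 21 nt the paps1-3 libraries of MIR393b lie at 19.0 to 34.4 CPM, above the wild-type libraries at 1.68 to 11.4, while those of the 3 miR160 loci overlap.

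MIR393b rose in paps1-3 at 21 nt, and it was the single member called at that length. Its 5′-arm form is annotated at 22 nt and its 3′-arm form at 21 nt. The counts do not separate the arms, so a rise of the form that pairs with TIR1/AFB transcripts is not shown. The 21-nt reads of MIR393b numbered 2, 12 and 21 in wild-type libraries 15, 19 and 25 and 19, 12 and 38 in paps1-3 libraries 16, 20 and 26. Scaled by TMM factors, which set the bulk of the tested features equal between libraries, these were 1.68, 6.55 and 11.4 CPM (reads per 1000000 reads of 21 nt) in wild type against 28.5, 19.0 and 34.4 in paps1-3. Every paps1-3 library lay above every wild-type library, and wild type 15 was the lowest of all. The means were 6.53 ± 4.83 and 27.3 ± 7.80 CPM (SD, n = 3 each), and the log2 fold change was 1.99 (SE 0.47, edgeR quasi-likelihood test with Benjamini-Hochberg adjustment, adjusted p = 0.00854).

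At this length 14.5% of the 3181 features tested were called higher and 4.68% lower at the threshold of 0.05, and the 1 of 4 tested members called higher is to be read against these shares. Among the 80 tested miRNA loci 10 were called higher and 17 lower, with a median log2 fold change of −0.29, against −0.13 over all features and 0.01 over the 4 members. The ratio of MIR393b reads per 21-nt read, paps1-3 over wild type, was 2.84, and its exact 95% interval, for counting error alone, ran from 1.87 to 4.40. On the scale of total reads, which moved the median of all features to −0.82, MIR393b stood at 1.21 (adjusted p = 0.103, edgeR), where 6.26% of features were called higher and 31.6% lower. Without paps1-3 library 26 it was 1.73 (adjusted p = 0.0849, edgeR), and over all alternatives its adjusted p lay between 5.35e-07 and 0.103.

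Its partner MIR393a, with the same 5′-arm sequence, had hardly any 21-nt reads. They numbered 0, 2 and 2 in the wild type and 1, 2 and 2 in paps1-3, too few for the test. MIR393b thus held nearly all 21-nt reads of the family, and the log2 ratio of MIR393b to MIR393a (0.5 added to each count) was 2.58 ± 0.45 in wild type against 3.32 ± 0.88 in paps1-3 (SD, n = 3 each, exact permutation p = 0.4, Benjamini-Hochberg 0.6 over 6 ratios). The genotypes overlapped in this ratio, so an unequal change of the loci was not detectable at this depth. Summed, the family had 2, 14 and 23 reads in wild type against 20, 14 and 40 in paps1-3. Its log2 fold change was 1.94 (SE 0.46, edgeR adjusted p = 0.00942), in a table of 3180 features with 14.5% called higher and 4.72% lower, and 1.71 (adjusted p = 0.0843) without paps1-3 library 26.

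Reads of 22 nt, the length of the annotated 5′-arm form of miR393, were fewer. They numbered 1, 8 and 9 in the wild type and 1, 3 and 6 in paps1-3, or 1.06, 6.77 and 8.24 CPM and 2.20, 6.92 and 7.78, so the genotypes overlapped. Here the loci were alike: MIR393a had 0, 5 and 4 reads in the wild type and 0, 2 and 3 in paps1-3, and MIR393b 1, 3 and 5 and 1, 1 and 3. The ratio of 22-nt reads per 22-nt read of the library was 0.739, with an exact 95% interval of 0.305 to 1.69. Fitted with no count filter, the family stood at −0.07 on the log2 scale at 22 nt (SE 0.71, edgeR adjusted p = 0.950).

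Within miR393 the share of 22-nt reads among its 21-nt and 22-nt reads was lower in every paps1-3 library than in every wild-type library. It was 1 of 3 reads (33.3%), 8 of 22 (36.4%) and 9 of 32 (28.1%) in wild type against 1 of 21 (4.76%), 3 of 17 (17.6%) and 6 of 46 (13.0%) in paps1-3. The exact 95% intervals (Clopper-Pearson) were 0.840% to 90.6% in wild-type library 15 and 0.120% to 23.8% in paps1-3 library 16, so single libraries were imprecise. The means were 32.6% ± 4.17 and 11.8% ± 6.53 (SD, n = 3 each), a difference of −20.8 percentage points. The exact two-sided permutation p was 0.1, the smallest that 3 unpaired libraries against 3 allow (Benjamini-Hochberg 0.3 over 3 families). The test did not use the pairing of libraries by isolation. As a share of reads of 20 to 24 nt the difference was −12.1 points (exact permutation p = 0.1). These shares do not depend on how libraries are scaled.

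Shares of other lengths of miR393 are not independent of the 22-nt share, since the same 21-nt reads enter both. Wild-type library 15 had only 5 reads of the family in all. Reads of 21 nt were 40.0%, 29.2% and 52.3% of all its reads in the wild type and 80.0%, 66.7% and 70.2% in paps1-3. Reads of 20 nt made up 15.9% to 41.7% in the wild type and 10.5% to 14.3% in paps1-3. The genotypes did not overlap in either share, and the exact permutation p was 0.1 for each, the smallest possible (Benjamini-Hochberg 0.3 over 9 shares).

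**Figure D2:**
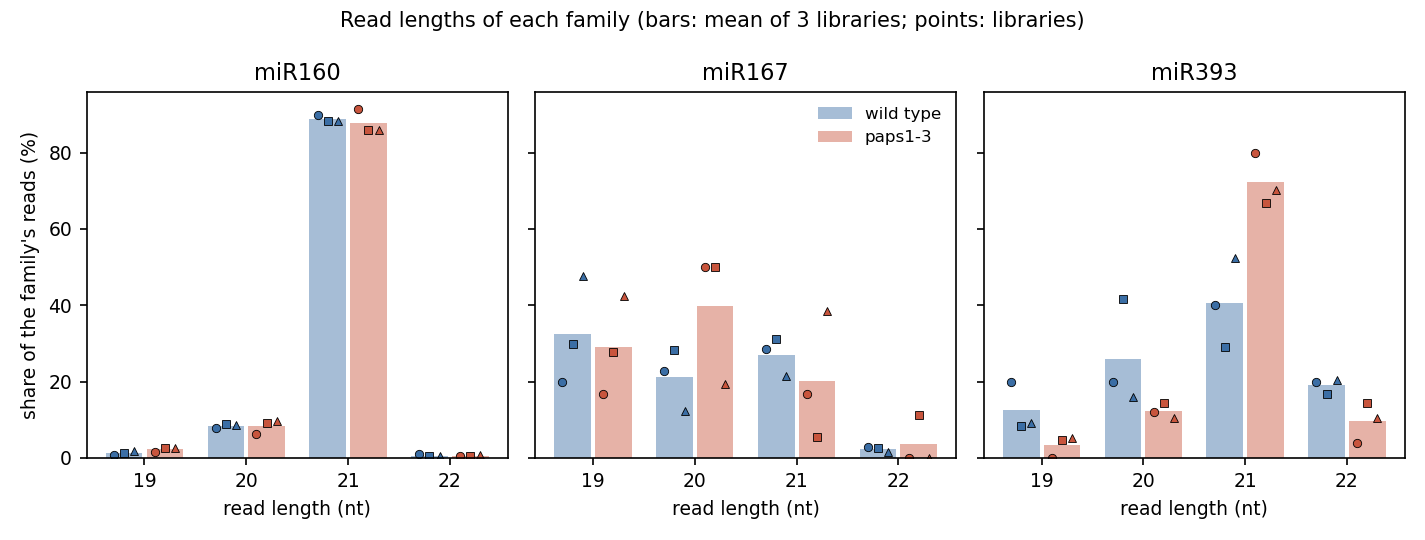
Share of each family's reads (in %) that were 19, 20, 21 or 22 nt long. Bars are means of 3 libraries and points are single libraries (circle, square and triangle for 15, 19 and 25 in wild type against 16, 20 and 26 in paps1-3). The 21-nt share of miR393 is 29.2% to 52.3% in the wild type and 66.7% to 80.0% in paps1-3, while that of miR160 stays between 85.9% and 91.3%.

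Over all lengths MIR393b had 5, 41 and 38 reads in the wild type and 24, 17 and 52 in paps1-3, or 0.447, 3.10 and 2.72 CPM against 5.58, 3.54 and 5.92. The genotypes did not overlap, but the change did not pass the test (log2 fold change 1.25, SE 0.50, edgeR adjusted p = 0.112). Without wild-type library 15, which held only 5 of these reads, it was 0.97 (adjusted p = 0.0303, edgeR), within an adjusted p of 0.00390 to 0.576 over the alternatives. The family stood at 1.19 (SE 0.51, edgeR adjusted p = 0.140) over all lengths, and at 0.90 (adjusted p = 0.0309) without wild-type library 15. Of the 6 members tested over all lengths 0 were called, where 14.3% of the 13464 features were called higher and 3.99% lower, and their median log2 fold change was 0.06 against −0.15 over all features. Before adjustment 1 of the 6, MIR393b, was under 0.05 with edgeR, and DESeq2 and limma-trend also called 0 of them.

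The miR160 family, which directs the cleavage of ARF10, ARF16 and ARF17 transcripts and was by far the most read of the families, showed no change that passed the test at 21 nt. It had 885, 1971 and 1878 reads in wild type against 692, 560 and 910 in paps1-3, or 744, 1079 and 1015 CPM and 1037, 884 and 824. The genotypes overlapped, with wild type 15 lowest and wild type 19 highest. The means were 946 ± 177 and 915 ± 109 CPM (SD, n = 3 each), and the log2 fold change was −0.05 (SE 0.28, edgeR adjusted p = 0.918).

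Its zero depends on the scale. Per total read the miR160 family was called lower, at −0.81 on the log2 scale (SE 0.31, edgeR adjusted p = 0.0435), which is the same shift as the median of all features on that scale (−0.82). Scaled to the reads of miRNA loci, where the median of all features stood at 0.27, it was 0.30 (adjusted p = 0.555, edgeR). Under each of these scalings the family thus lay close to the median feature. As a share of all 21-nt miRNA reads it made up 0.527%, 1.08% and 0.997% in the wild type and 1.16%, 1.01% and 1.05% in paps1-3, with wild type 15 apart from the other libraries. Over all lengths the family's share of miRNA reads was 0.381%, 0.710% and 0.625% in the wild type and 0.819%, 0.754% and 0.737% in paps1-3. These shares did not overlap (exact permutation p = 0.1, the smallest possible, not adjusted).

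**Figure D3:**
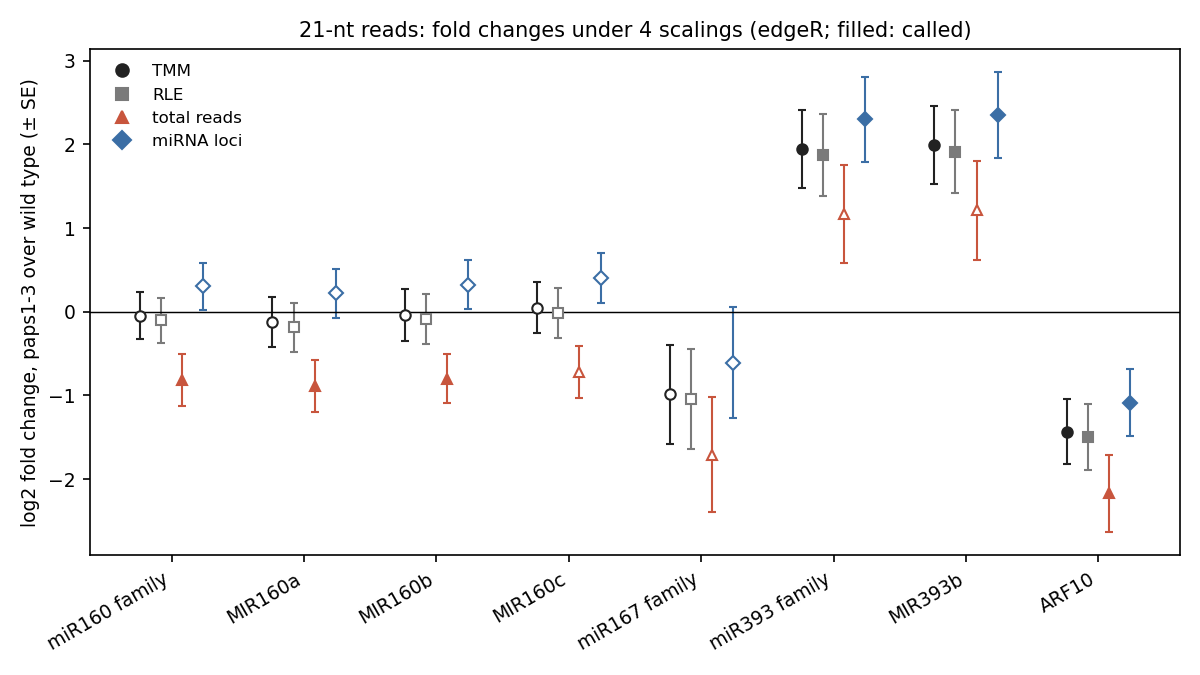
Log2 fold change of 21-nt reads, paps1-3 over wild type, with its standard error, under TMM, RLE, total-read and miRNA-locus scaling (edgeR, 3 libraries per genotype). Filled symbols are called at an adjusted p below 0.05; MIR393b moves from 1.99 with TMM to 1.21 per total read and 2.35 per miRNA read, and the miR160 family from −0.05 to −0.81 and 0.30.

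The 3 miR160 loci had similar values, which are not separate evidence for each locus, since they share the 5′-arm form. MIR160a had 360, 867 and 790 21-nt reads in the wild type and 262, 246 and 356 in paps1-3, MIR160b 276, 563 and 511 and 222, 152 and 248, and MIR160c 249, 541 and 577 and 208, 162 and 306. Their log2 fold changes were −0.13 (SE 0.30, adjusted p = 0.797), −0.03 (SE 0.31, adjusted p = 0.950) and 0.05 (SE 0.31, adjusted p = 0.926; edgeR for all). Per total read MIR160a stood at −0.89 (adjusted p = 0.0313), MIR160b at −0.80 (adjusted p = 0.0349) and MIR160c at −0.72 (adjusted p = 0.0675).

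Within each library MIR160a held 37.9% to 44.0% of the family's 21-nt reads, MIR160b 27.1% to 32.1% and MIR160c 27.4% to 33.6%. The order of MIR160b and MIR160c changed from library to library, while MIR160a was first in all 6. The log2 ratio of MIR160b to MIR160a was −0.54 ± 0.14 in wild type and −0.48 ± 0.23 in paps1-3 (exact permutation p = 0.7), and that of MIR160c to MIR160a −0.55 ± 0.12 and −0.38 ± 0.20 (exact permutation p = 0.3; SD, n = 3 each; Benjamini-Hochberg 0.7 and 0.6 over 6 ratios). Since the loci share the 5′-arm form, the counts cannot say which locus a read of it came from, and the treatment of reads with several matches is unknown here. MIR160a and MIR160c also have 3′-arm forms of their own, which the counts do not separate from the 5′-arm form.

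miR160 was almost wholly of its annotated length. Reads of 21 nt made up 88.8% ± 0.872 of the family in wild type against 87.7% ± 3.11 in paps1-3, and reads of 20 nt 8.40% ± 0.600 and 8.34% ± 1.87 (SD, n = 3 each; exact permutation p = 0.6 and 1). At 22 nt the family had 9, 12 and 8 reads in the wild type and 3, 3 and 9 in paps1-3, which was 0.679% ± 0.298 and 0.648% ± 0.291 of its 21-nt and 22-nt reads (SD, n = 3 each, exact permutation p = 0.8). Over all lengths MIR160a, MIR160b and MIR160c stood at log2 fold changes of 0.05, 0.07 and 0.13, with adjusted p between 0.800 and 0.934 (edgeR), and at −0.81, −0.82 and −0.74 per total read. On that scale 40.3% of the 13464 features were called lower and 6.02% higher, and MIR160b was called lower (adjusted p = 0.0315, edgeR).

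miR167, which directs the cleavage of ARF6 and ARF8, was the scarcest family at 21 nt in paps1-3. It had 10, 23 and 14 reads of 21 nt in the wild type and 1, 1 and 10 in paps1-3, or 8.41, 12.6 and 7.57 CPM against 1.50, 1.58 and 9.06. The first 2 mutant libraries lay below all wild-type libraries and paps1-3 26 lay among them, so the genotypes overlapped. The log2 fold change was −0.98 (SE 0.59, edgeR adjusted p = 0.280), and −2.58 without paps1-3 library 26 (adjusted p = 0.0701, edgeR), the lowest adjusted p among the fits that left out 1 library.

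The 4 miR167 loci were read unevenly. MIR167a had 4, 10 and 10 reads of 21 nt in wild type against 0, 0 and 6 in paps1-3, and MIR167b 4, 11 and 3 and 1, 1 and 4. MIR167d had 2, 2 and 0 reads and MIR167c 0, 0 and 1 in wild type, and both had 0 in all paps1-3 libraries. None of the 4 passed the filter at 21 nt, and at 22 nt the family had 1, 2 and 1 reads in the wild type and 0, 2 and 0 in paps1-3, with 0 at MIR167c and MIR167d.

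Over all lengths miR167 had 35, 74 and 65 reads in the wild type and 6, 18 and 26 in paps1-3, or 3.13, 5.58 and 4.65 CPM and 1.40, 3.75 and 2.96. Only paps1-3 20 reached the lowest wild-type library. The log2 fold change was −0.70 (SE 0.35, edgeR adjusted p = 0.194). With isolation as a block it was −0.72 (SE 0.26, adjusted p = 0.0463, edgeR), in a table of 13461 features with 8.64% called lower, and per total read −1.46 (adjusted p = 0.0226), where 40.3% were called lower. Over the alternatives its adjusted p lay between 0.0226 and 0.714.

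MIR167d had the lowest ratio of the 3 miR167 loci with more than 2 reads in all. It had 6, 17 and 12 reads in wild type against 1, 4 and 1 in paps1-3, and the ratio of reads per total read, paps1-3 over wild type, was 0.214 (exact 95% interval 0.0736 to 0.514). The TMM-scaled values, 0.536, 1.28 and 0.858 CPM and 0.233, 0.833 and 0.114, overlapped, and the locus did not pass the filter. MIR167a and MIR167b, with ratios of 0.398 and 0.407 per total read, had TMM log2 fold changes of −0.57 (SE 0.44, edgeR adjusted p = 0.407) and −0.50 (SE 0.42, adjusted p = 0.448). Both of these ratios lie within the interval of MIR167d, so the order of the loci is not established. Per total read the median of all features over all lengths stood at −0.94 on the log2 scale (edgeR), so low ratios on that scale were common.

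miR167 reads were spread over lengths as those of miR160 were not. In wild type 32.5% ± 14.0 of them were 19 nt long, 21.2% ± 8.17 were 20 nt and 27.1% ± 4.95 were 21 nt, and in paps1-3 28.9% ± 12.9, 39.7% ± 17.8 and 20.2% ± 16.7 (SD, n = 3 each, exact permutation p = 0.7, 0.3 and 0.6). The 19-nt reads were counted mostly at MIR167a, with 47 of the 60 in the wild type and 15 of the 17 in paps1-3. MIR167d, whose annotated form is 22 nt long, had 0 reads of 22 nt and 12 of 20 nt among its 35 in wild type. The first 19 and the first 20 bases of its mature form are shared by MIR167a and MIR167b, so 19-nt and 20-nt reads of that stretch match 3 places in the genome and their locus of origin is not shown. The wild-type 19-nt counts were uneven, with 47 at MIR167a, 6 at MIR167b and 7 at MIR167d. Whether they are reads of that stretch was not tested.

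To place the families among other miRNA loci, the 3 loci with the smallest root-mean-square difference of centred log2 CPM at 21 nt were taken, over 76 tested loci and 6 libraries. For miR393 these were MIR319a (0.289), MIR172c (0.300) and MIR172d (0.449), against a median of 1.32 over the loci. Their log2 fold changes were 1.89, 1.74 and 1.50, which describe the choice, since loci picked for a pattern like that of miR393 over the same libraries share its direction. For miR160 they were MIR774a (0.148), MIR868 (0.173) and MIR157a (0.178), with a median of 0.595 and log2 fold changes of −0.03, −0.06 and 0.22. For miR167 they were MIR162b (0.679), MIR172b (0.692) and MIR399a (0.759), with a median of 0.988 and log2 fold changes of −0.99, −0.45 and −1.41.

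Among the target genes ARF10, a target of miR160 and a repressing auxin response factor, had the most small RNA reads at 21 nt, and over all lengths ARF10 and the miR393 target bHLH77 had the most. Of the 11 targets listed all had reads over all lengths, 5 passed the filter, 0 were called higher and 1, ARF10, was called lower, where 14.3% of all features were called higher and 3.99% lower. ARF10 (AT2G28350) had 38, 108 and 90 reads of 21 nt in the wild type and 9, 18 and 13 in paps1-3, or 32.0, 59.0 and 48.6 CPM against 13.5, 28.5 and 11.8. All paps1-3 libraries lay below all wild-type libraries, with paps1-3 20 nearest to wild type 15. Its 21-nt reads fell by 1.43 on the log2 scale (SE 0.39, edgeR adjusted p = 0.0202) while the median feature stood at −0.13. Without wild-type library 19 it was −1.25 (adjusted p = 0.0822), without paps1-3 16 −1.26 (adjusted p = 0.0845) and without paps1-3 26 −1.19 (adjusted p = 0.133), so the call rests on each of these libraries, and over all alternatives that left out 1 library the adjusted p lay between 0.000808 and 0.133.

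The miR160 sites of its 3 targets are shown because ARF10 alone of them carried many reads, and they pair with the same mature sequence. They lie in coding sequence at chr2:12115741-12115761 (plus strand), chr4:14704141-14704161 (minus strand) and chr1:29274189-29274209 (plus strand) of TAIR10.1. Capitals mark bases that can form Watson-Crick pairs with miR160.
ARF10: aGGaAUACAGGGAGCCAGGCA
ARF16: gGGuuUACAGGGAGCCAGGCA
ARF17: UGGCAUgCAGGGAGCCAGGCA
ARF10 and ARF16 each have 2 mismatches and ARF17 has 0, with 1 G-U pair in ARF16 and in ARF17. Over all lengths ARF10 had 55, 123 and 116 reads in wild type against 13, 23 and 17 in paps1-3 (log2 fold change −1.27, SE 0.35, edgeR adjusted p = 0.0255), of which 69.1% to 87.8% were 21 nt long. Of its 4 rows 1 held 77.8% to 95.6% of the 21-nt reads. ARF16 had 6, 10 and 5 reads and 1, 0 and 3, and ARF17 11, 10 and 24 and 6, 4 and 13 (log2 fold change 0.13, SE 0.43, adjusted p = 0.867). Over all lengths the ARF10 call was lost without wild-type library 19 (−1.07, adjusted p = 0.0961) or 25 (−1.13, adjusted p = 0.0654) and without paps1-3 16 (−1.21, adjusted p = 0.0791) or 26 (−0.89, adjusted p = 0.177), and with scaling to miRNA loci (−0.89, adjusted p = 0.0792; edgeR for all).

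**Figure D4:**
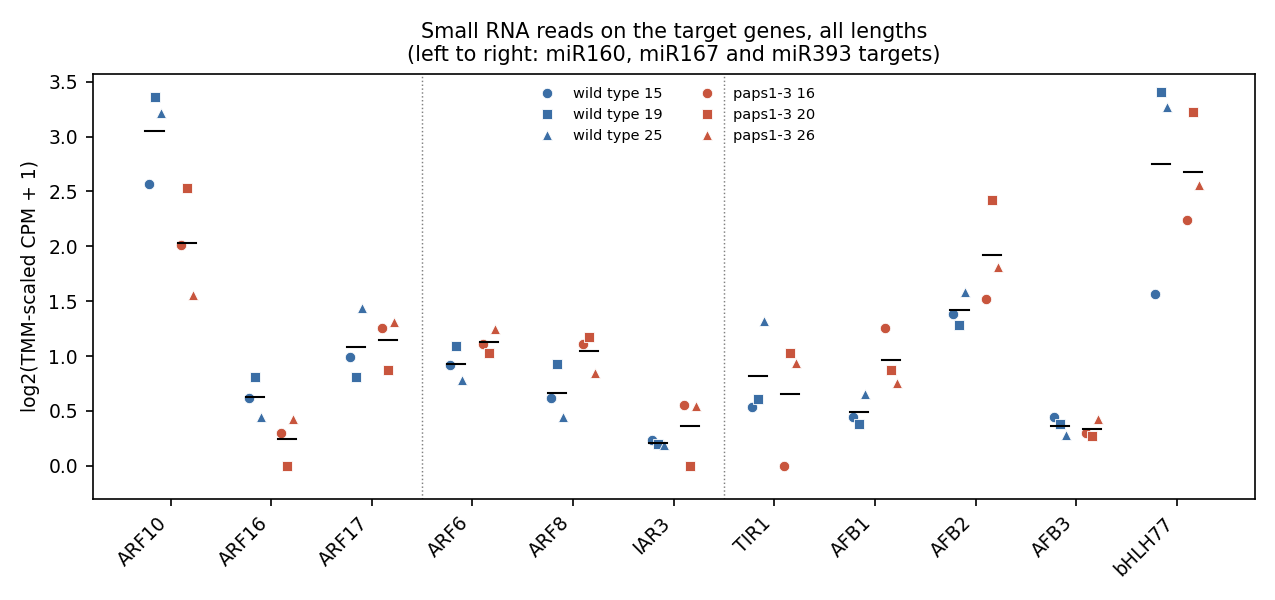
TMM-scaled CPM (as log2 of CPM + 1) of small RNA reads of all lengths on the 11 target genes, 1 point per library, with horizontal lines for the mean of the 3 log values of a genotype. ARF10 lies at 4.92 to 9.29 CPM in the wild type and 1.94 to 4.79 in paps1-3. ARF16 and AFB1, both with at most 10 reads per library, also do not overlap between the genotypes, but in opposite directions. ARF16 is lower in paps1-3 and AFB1 higher, where 13 of the 16 AFB1 reads of paps1-3 are 18 nt long. Neither gene passed the filter, and 3 libraries against 3 without overlap reach an exact permutation p of 0.1 at best.

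On the targets of miR393, the auxin receptors, counts were low and no call was made. TIR1 had 5, 7 and 21 reads over all lengths in the wild type and 0, 5 and 8 in paps1-3, AFB1 4, 4 and 8 and 6, 4 and 6, and AFB3 4, 4 and 3 and 1, 1 and 3. AFB2 had 18, 19 and 28 and 8, 21 and 22 (log2 fold change 0.77, SE 0.35, edgeR adjusted p = 0.159). bHLH77, a transcription factor outside the receptor family, had 22, 127 and 121 and 16, 40 and 43 (−0.27, SE 0.52, adjusted p = 0.762). AFB1 and AFB3 also have a stretch shared with a neighbouring gene under a joined ID, which was not added to them. Of the miR167 targets ARF6 had 10, 15 and 10 reads and 5, 5 and 12 (0.41, SE 0.39, adjusted p = 0.502), ARF8 6, 12 and 5 and 5, 6 and 7, and IAR3, an auxin conjugate hydrolase, 2, 2 and 2 and 2, 0 and 4. These are reads of small RNAs on the genes and do not measure their messenger RNA.

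Of the other auxin genes listed, 18 in all, 4 passed the filter over all lengths, with 2 called higher and 0 lower, against 14.3% and 3.99% of all features. At 21 nt and at 22 nt 0 of the 18 passed the filter. TPL, the co-repressor that Aux/IAA proteins recruit, had 38, 53 and 59 reads in wild type against 62, 57 and 98 in paps1-3, or 3.40 to 4.22 CPM against 11.2 to 14.4, and rose by 1.67 on the log2 scale (SE 0.21, edgeR adjusted p = 0.000199), or by 0.85 per total read (adjusted p = 0.0394). PIN8, an auxin carrier known from pollen, had 14, 18 and 13 and 12, 18 and 42, or 1.25, 1.36 and 0.930 CPM against 2.79, 3.75 and 4.78, and rose by 1.71 (SE 0.32, adjusted p = 0.00285), but stood at 0.96 per total read (adjusted p = 0.0788). Of the TPL reads 72 of 150 in the wild type and 108 of 217 in paps1-3 were 18 nt long. Of the PIN8 reads only 10 of 45 and 8 of 72 were 21 nt long. PIN5, a related carrier, had 4, 2 and 10 and 12, 6 and 5 (1.67, SE 0.66, adjusted p = 0.106), and the uptake carrier AUX1 142, 26 and 52 and 19, 17 and 40 (−0.52, SE 0.61, adjusted p = 0.605). In the route from miR390 to tasiRNAs against ARF2, ARF3 and ARF4, 3 of 8 genes passed the filter and 0 were called by edgeR, DESeq2 or limma-trend, with 0 under 0.05 before adjustment in edgeR. MIR390a had 138, 305 and 189 reads of 21 nt in the wild type and 104, 160 and 175 in paps1-3 (0.56, SE 0.35, adjusted p = 0.308), MIR390b 135, 321 and 183 and 102, 128 and 153 (0.34, SE 0.35, adjusted p = 0.522), and TAS3a 9, 49 and 53 and 3, 20 and 15 (−0.41, SE 0.56, adjusted p = 0.629). Over all lengths MIR390a stood at 0.50 (SE 0.35, adjusted p = 0.357), and at 0.52 (adjusted p = 0.0475, edgeR) with isolation as a block.

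Markers of pollen cells were called in both directions. Of the vegetative-cell markers over all lengths 2 of 4 tested were called higher (VEX1 and PPME1) and 1 lower (PTEN1). Of the sperm-cell markers 1 of 4 tested was called lower (DAZ2), and of the 3 leaf markers 0 were called. Of all features 14.3% were called higher and 3.99% lower. Over all lengths the summed vegetative-cell level was higher in every paps1-3 library than in every wild-type library. Most of that sum was VGD1, which was not called (log2 fold change 0.31, SE 0.32, edgeR adjusted p = 0.543). The summed leaf and tapetum levels were lower in every paps1-3 library, and the summed sperm-cell level overlapped. At 21 nt, the length of the MIR393b call, PPME1 was called higher (log2 fold change 1.76, edgeR adjusted p = 0.00257). PTEN1 (−1.92, adjusted p = 0.00161) and DAZ2 (−4.39, adjusted p = 0.00322) were called lower there, and VGD1 was not called (0.22, adjusted p = 0.614; edgeR for all). Of all features at that length 14.5% were called higher and 4.68% lower. The marker sums all overlapped at 21 nt. The vegetative-cell markers then lay between 850 and 1097 CPM in wild type and between 1059 and 1378 in paps1-3, the sperm-cell markers between 11.9 and 22.7 and between 6.32 and 14.5, the leaf markers between 4.21 and 9.83 and between 3.00 and 6.34, and the tapetum markers between 0 and 1.09 and between 0 and 1.81. Their part in the differences at MIR393b and ARF10 was not tested.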

How the data were processed

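Small RNA libraries of sorted pollen (3 wild type, 3 paps1-3) were made with a TruSeq small RNA kit, per the labels' protocols. The authors deposited whole read counts per annotated segment and read length, not normalised, per the file headers. Trimmomatic, BWA, SAMtools and bedtools with TAIR10 are named, per the submitters' processing notes, without versions. Strand and reads with several matches are not given in the sources used here: reads of miRNA families could enter at several loci. Counts were summed per ID.

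CPM are reads per 1000000 of the length named. All features were tested with edgeR 4.0.16 (R 4.3.3): robust quasi-likelihood test, TMM, filterByExpr on genotype, no block, Benjamini-Hochberg at 0.05, at 21 nt, at 22 nt and over all lengths. Family sums replaced their members in a table of their own. Shares and ratios were compared by exact two-sided permutation over 20 assignments, without pairing libraries by isolation. Rate ratios have exact conditional binomial intervals. Alternatives were DESeq2 1.42.0, limma 3.58.1 (prior count 2), RLE, total-read and miRNA-locus scaling, no filter, a stricter filter (10 counts in 3 libraries, mean of 1 CPM), no structural or organelle features, the block, and libraries left out. The edgeR step was first tested on simulated data. Tables and figures used Python 3.11.15 with scipy 1.17.1, matplotlib 3.10.9, numpy 2.4.6 and pandas 2.3.3.

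Per the labels, wild-type and mutant grains of an isolation share a sample, but no number pairs them. Adjacent library numbers were taken as an isolation, since deviations from genotype means at 21 nt correlated across features with r of 0.46, 0.24 and 0.41 for 15 and 16, 19 and 20, and 25 and 26, and −0.37 to 0.15 for other pairs.

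Sequences were read from RefSeq TAIR10.1 by annotated name. The files hold no coordinates. The members and lists were chosen with earlier results of these data known. All 9 members are named, each target with a read, and of the other auxin lists the genes called, those ranked 1 to 3 by p and the gene with the highest count.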

Additional observations from a re-analysis of the deposited data

How the results depend on the processing

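The rise of miR393 at 21 nt kept its direction under all alternatives run. Per total read it was 1.17 and missed the threshold, and with 1 library left out it was 1.62 to 2.49 (edgeR adjusted p 0.00138 to 0.0843). The miR160 family, near 0 at 21 nt, was called lower per total read (−0.81), was 0.30 with miRNA-locus scaling and 0.028 without structural and organelle features, and with 1 library left out −0.15 to 0.032. For its loci at 21 nt, miRNA-locus scaling gave MIR160a 0.22 and MIR160b 0.32, removal of structural features gave MIR160b 0.046, and MIR160c was −0.014 with RLE and with DESeq2, −0.72 per total read, −0.23 with no filter and −0.13 without libraries 15 and 16; leaving out 1 library gave −0.18 to 0.076 for MIR160b and −0.070 to 0.16 for MIR160c. Over all lengths total-read scaling gave −0.79 for the family and −0.81, −0.82 and −0.74 for MIR160a to MIR160c, leaving out 15 and 16 gave −0.17, −0.16, −0.25 and −0.11, and leaving out 1 library gave −0.045 to 0.28 for the family, −0.051 to 0.27 for MIR160a and −0.16 to 0.27 for MIR160b. Total-read scaling also turned MIR390a (−0.14 at 21 nt, −0.30 over all lengths), MIR390b (−0.37, −0.50), ARF17 (−0.69) and ARF6 (−0.36), and miRNA-locus scaling turned bHLH77 (0.12) and TAS3a (0.20). AUX1 was 0.70 without 15 and 16. Ranges over single libraries left out were −1.09 to 0.018 for TAS3a at 21 nt and, over all lengths, −0.48 to 0.27 for TAS3a, −0.10 to 0.57 for ARF17, −0.58 to 0.074 for bHLH77 and −0.94 to 0.72 for AUX1. Of the 37 auxin-list genes, 0 called higher at 21 nt became 1 with miRNA-locus scaling, 2 over all lengths became 1 per total read and 4 with miRNA-locus scaling; 1 called lower became 0 to 1 with a library left out at either length, and over all lengths 0 with miRNA-locus scaling and 2 with no filter. The 22-nt share difference of miR393 stayed between −23.7 and −17.3 points with 1 library left out, was −16.9 without 15 and 16 and shrank to −12.1 over reads of 20 to 24 nt; that of miR160 was −0.20 to 0.13 and 0.24 without 15 and 16, and that of miR167 −7.92 to 25.4. The log2 ratio difference of MIR160b to MIR160a was −0.062 to 0.16 with 1 library left out and −0.029 over all lengths, MIR167b to MIR167a −0.28 at 22 nt, MIR167d to MIR167a −0.46 over all lengths and MIR393b to MIR393a −0.12 at 22 nt. The cause of these differences was not tested. The replicate block called miR167 lower over all lengths (−0.72) and MIR390a higher (0.52) and changed no other call of the results listed. At 22 nt no family passed the filter, so no alternatives were run there beyond the fit with no filter (adjusted p 0.875 to 0.950), and joined IDs gave no alternative since 0 held a member. Depth limits miR167 and miR393 most: with 1 to 40 reads of 21 nt per library, counting error alone is large there.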

Other observations

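The reads on the target and carrier genes differed in length. On ARF10, 21-nt reads were 69.1%, 87.8% and 77.6% of all reads in the wild type and 69.2%, 78.3% and 76.5% in paps1-3. On AUX1 they were few: of 142, 26 and 52 reads in the wild type, 107, 16 and 41 were 18 nt long, and of 19, 17 and 40 in paps1-3, 10, 13 and 20. On bHLH77, a miR393 target, 19-nt and 20-nt reads led, with 47 of each among 127 reads in wild-type library 19 and 15 and 16 among 40 in paps1-3 library 20. The 21-nt reads of bHLH77 made up 4.96% to 18.2% in wild type and 0% to 9.30% in paps1-3.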
